A study of Rattus norvegicus with 9 samples.

Results

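Prostaglandin synthesis and receptor genes were followed in cultured rat cardiac fibroblasts of 3 ages. The members were 9 named genes, taken by symbol from the 17337 genes of the count table: the cyclooxygenases Ptgs1 and Ptgs2, the terminal synthases Ptges, Ptgis and Ptgds, and the prostaglandin E2 receptors Ptger1, Ptger2, Ptger3 and Ptger4. All 9 were among the 11337 genes that had enough counts to be tested. RNA came from Sprague Dawley hearts at embryonic day 18 (fetal), postnatal day 1 (neonatal) and 7 weeks (adult), with 3 libraries per age. Cells of each age were used at passage 0 after growth to confluency in DMEM with fetal bovine serum, antibiotics and ascorbic acid, so that all groups shared serum and ascorbic acid. No genotype change, drug or other agent is given for any group.

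Prostaglandins are made from arachidonic acid, which phospholipases free from membranes. The cyclooxygenases, Ptgs1 (largely constitutive) and Ptgs2 (induced by cytokines, growth factors and stress), turn it into prostaglandin H2, and a terminal synthase then makes the final product: Ptges makes prostaglandin E2, Ptgis prostacyclin and Ptgds prostaglandin D2. Prostaglandin E2 acts through receptors that differ in coupling: Ptger2 and Ptger4 raise cyclic AMP, Ptger3 lowers it, and Ptger1 raises cytosolic calcium. In heart fibroblasts, agents that raise cyclic AMP are known to restrain collagen synthesis and myofibroblast formation.

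To show the regulatory sequence of the 2 cyclooxygenases, which catalyse the same reaction, and of Ptger2 and Ptger3, receptors with opposite age patterns, the 250 bases before the RefSeq start site are given 5′ to 3′ on the gene's strand (RefSeq, GRCr8). The count table uses rn6, and these sequences were matched by symbol: 8 of the 9 members had an entry. Positions are chr3:39981169-39981418 for Ptgs1, chr13:64713813-64714062 for Ptgs2, chr15:20696796-20697045 for Ptger2 and chr2:249264832-249265081 for Ptger3, all on the plus strand. Capitals mark matches, on either strand, to any of TATAAA (the TATA box), CCAAT (the CCAAT box), GGGCGG (a GC box), CACGTG (an E-box), CGTCA (the core of a cyclic AMP response element) or the NF-kB consensus.
Ptgs1: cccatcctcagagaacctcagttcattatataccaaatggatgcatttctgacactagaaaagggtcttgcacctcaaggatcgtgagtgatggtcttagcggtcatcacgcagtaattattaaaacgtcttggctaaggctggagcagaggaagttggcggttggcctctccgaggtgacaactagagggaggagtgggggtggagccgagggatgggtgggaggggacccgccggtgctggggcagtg
Ptgs2: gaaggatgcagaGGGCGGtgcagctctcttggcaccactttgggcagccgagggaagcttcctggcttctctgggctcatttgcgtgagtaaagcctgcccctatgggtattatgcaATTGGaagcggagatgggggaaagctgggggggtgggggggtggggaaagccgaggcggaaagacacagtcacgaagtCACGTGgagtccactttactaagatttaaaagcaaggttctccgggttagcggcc
Ptger2: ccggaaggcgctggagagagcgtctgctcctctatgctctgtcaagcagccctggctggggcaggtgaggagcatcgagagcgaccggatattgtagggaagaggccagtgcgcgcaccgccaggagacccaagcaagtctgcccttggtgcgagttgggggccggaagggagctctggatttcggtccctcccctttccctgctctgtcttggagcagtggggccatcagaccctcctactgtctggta
Ptger3: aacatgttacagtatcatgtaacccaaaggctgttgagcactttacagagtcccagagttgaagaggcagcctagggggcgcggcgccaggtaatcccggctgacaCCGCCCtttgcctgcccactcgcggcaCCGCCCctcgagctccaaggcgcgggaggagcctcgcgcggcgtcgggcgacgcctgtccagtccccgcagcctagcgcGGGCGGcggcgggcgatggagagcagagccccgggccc
Ptgs2 held 1 CACGTG, the E-box hexamer, 55 to 50 bases before the start, a word found in 5.59% of the 33461 rat promoter windows of this length. It also held 1 CCAAT on the minus strand (34% of windows) and 1 GGGCGG (30.5%). Ptger3 held 3 matches to GGGCGG, and Ptgs1 and Ptger2 held none of the 6 motifs. Of all windows, 12.9% held TATAAA, 18.2% CGTCA and 6.32% the NF-kB consensus, and none of these was in the 4 sequences. These matches describe letters only and were not tested for binding.

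The libraries held 13392825 to 13810825 assigned counts at the adult, 16277129 to 22141173 at the fetal and 16241217 to 22850491 at the neonatal age. Fetal replicate 3 stood apart from the other fetal libraries, and adult replicate 1 from the other adult ones: between libraries of 1 age the chi-square statistic per degree of freedom was 90.0 and 97.3 for pairs with fetal replicate 3, against 3.94 for the other fetal pair, and 25.8 and 43.0 for pairs with adult replicate 1, against 6.76. Several results that rest on them are also given without them. The fibroblast markers Col1a1, Col3a1, Vim, Ddr2, Pdgfra, Tcf21, Thy1, Dcn and Postn were present at each age, whereas Col1a2 was at 0.976 CPM, the read counts scaled to library size, or less in every library, so its count is not read here as its transcript level. The 12 macrophage markers summed to 14.9, 15.2 and 69.0 CPM in fetal, 163 to 180 CPM in neonatal and 4176 to 5831 CPM in adult libraries, all 12 being higher in every adult library than in any younger one, with Cd163 at 0 in all fetal and neonatal libraries. The 10 cardiomyocyte markers summed to 6555 to 10040, 4841 to 5387 and 304 to 319 CPM at the fetal, neonatal and adult ages, with Mb and Csrp3 at 0 in the adult libraries. Tnnt2 alone made up nearly all of the adult sum, at 303 to 316 CPM. Each other cardiomyocyte marker had an adult mean of 0.57 CPM or less. The 6 mesothelial markers in the table summed to 235.5 CPM in fetal replicate 3, to 80.8 and 82.3 CPM in the other fetal libraries, to 34.8 to 37.4 CPM in neonatal and to 14.7 to 34.4 CPM in adult libraries, highest there in replicate 1. In fetal replicate 3 only 3 of the 6 lay above both other fetal libraries, Krt8 alone reaching 144 CPM and Krt18 32.3 CPM, while Msln (18.0 to 18.8 CPM) and Wt1 (9.83 to 10.7 CPM) were similar in all fetal libraries. The 6 mural cell markers summed to 269 CPM in fetal replicate 3 against 692 and 702 CPM, to 1178 to 1238 CPM in neonatal, and to 189 CPM in adult replicate 1 against 333 and 350 CPM. In RNA from a mixed culture, fewer cells of a type and less RNA per cell cannot be told apart. The part of other cell types in the results below was not tested.

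Between fetal and neonatal cells 5 of the 9 genes changed, 2 higher and 3 lower in neonatal cells, where 36.3% of all tested genes were called, 18.3% higher and 18.0% lower (edgeR, adjusted p under 0.05). Between neonatal and adult cells 7 changed, 5 higher and 2 lower in adult cells, where 63.5% of all genes were called, 31.6% higher and 31.8% lower. Between fetal and adult cells 7 changed, 4 higher and 3 lower in adult cells, where 70.5% were called, 34.9% higher and 35.5% lower. The shares of members called in the adult comparisons were thus near those of all genes. The median size of the log2 fold change over the 9 genes was 1.33, 1.63 and 2.13 in the order given, beside 0.29, 0.52 and 0.63 over all genes tested. The comparisons share libraries, so a gene's values in them are not independent of each other.

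**Figure D1:**
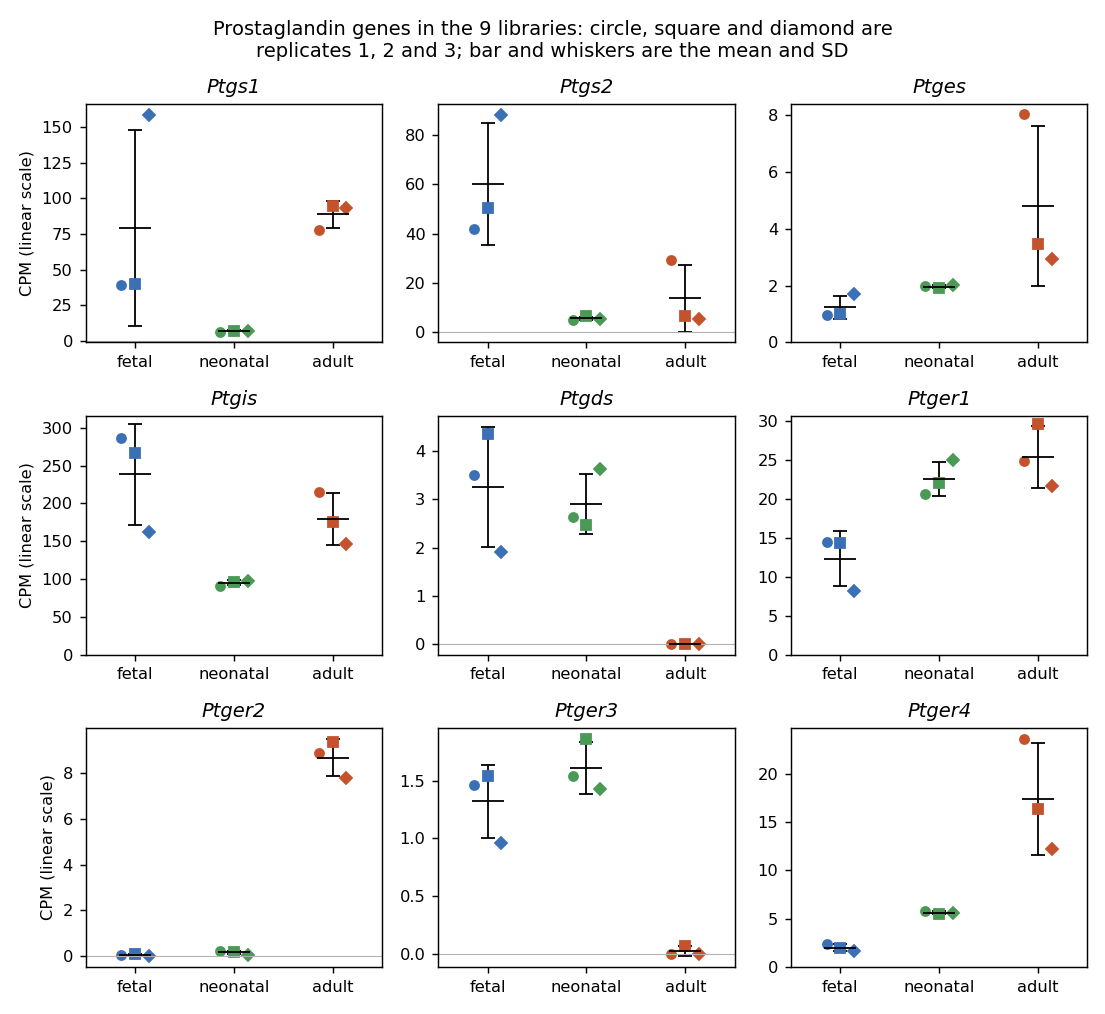
Level of each of the 9 prostaglandin genes in CPM (linear vertical axis) by age on the horizontal axis. Each marker is 1 library, with circle, square and diamond for replicates 1, 2 and 3, and the bar and whiskers are the mean and SD of 3 libraries. Ptgs1 and Ptgis are lowest at the neonatal age, Ptgs2 is highest in fetal cells, Ptger2 and Ptger4 are highest in adult cells, and Ptgds and Ptger3 are at or near 0 there.

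Both cyclooxygenases fell between fetal and neonatal cells, and Ptgs1 was higher again in adult cells. Ptgs1 (chromosome 3, 15560723 to 15582338, rn6) was at 39.2, 40.0 and 158.8 CPM in fetal replicates 1, 2 and 3, at 6.72, 7.44 and 7.38 CPM in neonatal and at 78.2, 94.7 and 93.5 CPM in adult replicates. Every neonatal library lay below every fetal and adult one, and fetal replicate 3 lay above all others. Neonatal cells held 7.18 ± 0.401 CPM (SD, n = 3) against 79.4 ± 68.8 CPM in fetal cells (SD, n = 3), a fall of 3.46 on the log2 scale (SE 0.56, edgeR adjusted p = 0.00207). Without fetal replicate 3 the fetal mean was 39.6 CPM and the log2 difference -2.46 (edgeR adjusted p = 2.98e-08). Adult cells, at 88.8 ± 9.20 CPM (SD, n = 3), were higher than neonatal cells by 3.63 on the log2 scale (SE 0.56, edgeR adjusted p = 0.000480).

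The adult and fetal levels of Ptgs1 overlapped only through fetal replicate 3, and the size of their difference depended on that library. With all libraries the log2 difference of adult over fetal cells was 0.16 (95% interval -0.93 to 1.26, edgeR adjusted p = 0.772). Without fetal replicate 3 adult cells were higher by 1.16 (SE 0.09, edgeR adjusted p = 4.79e-07). The summed macrophage markers were at 15.2, 14.9 and 69.0 CPM in fetal replicates 1, 2 and 3, at 163 to 180 CPM in neonatal and at 4176 to 5831 CPM in adult libraries. Beside them Ptgs1 was at 39.2, 40.0 and 158.8 CPM, at 6.72 to 7.44 CPM and at 78.2 to 94.7 CPM: both were highest among the fetal libraries in replicate 3 and higher in adult than in neonatal libraries, while from fetal to neonatal libraries the markers were higher and Ptgs1 lower. The part of macrophage transcripts in the level of Ptgs1 was not tested.

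Ptgs2 (chromosome 13, 67351230 to 67356920, rn6), the inducible enzyme, was at 41.8, 50.4 and 88.3 CPM in fetal, 5.12, 6.46 and 5.18 CPM in neonatal and 29.3, 6.65 and 5.32 CPM in adult replicates 1, 2 and 3. All fetal libraries lay above all others, and adult replicate 1 lay well above the other adult libraries, which were at the neonatal level. From 60.2 ± 24.7 CPM in fetal cells (SD, n = 3) it fell to 5.59 ± 0.757 CPM in neonatal cells (SD, n = 3), by 3.42 on the log2 scale (SE 0.62, edgeR adjusted p = 0.00367). Adult cells, at 13.8 ± 13.5 CPM (SD, n = 3), were lower than fetal cells by a log2 difference of -2.13 (SE 0.58, edgeR adjusted p = 0.00939). The adult call was lost without fetal replicate 3 (log2 -1.76, edgeR adjusted p = 0.0578), and without adult replicate 1 the difference was -3.32 (edgeR adjusted p = 8.63e-05).

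Adult and neonatal levels of Ptgs2 were not separated: the log2 difference was 1.29 (95% interval -0.14 to 2.72, edgeR adjusted p = 0.104), and it was 0.09 without adult replicate 1 (edgeR adjusted p = 0.843). Leaving out adult replicate 3 gave 1.67 and a call (edgeR adjusted p = 0.0381). The Ptgs2 gene model counted here spans 5691 bases with 1815 exonic bases, while RefSeq gives the gene 8258 bases in GRCr8, so that reads from the part outside the model were not counted in any library.

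Per exon length, Ptgs2 made up a smaller share of the cyclooxygenase transcripts in each adult library than in any younger one, a difference that 3 against 3 libraries cannot take past the threshold. Ptgs2 made up 62.1%, 65.9% and 46.0% of the summed RPKM, the CPM value divided by exon length in kilobases, of Ptgs1 and Ptgs2 in fetal replicates, 53.9%, 57.1% and 51.9% in neonatal and 36.5%, 9.72% and 8.03% in adult replicates. Ptgs1 was thus the larger part in every adult library and in fetal replicate 3, and all adult shares lay below all others. In counts not divided by exon length, Ptgs2 made up 43.3%, 46.5% and 41.2% in neonatal replicates. Which gene was the larger part there thus rests on the exon lengths of the counted models. The means were 58.0% ± 10.5, 54.3% ± 2.67 and 18.1% ± 16.0 (SD, n = 3 each). The adult share minus the fetal share was -39.9 percentage points and the adult minus the neonatal share -36.2 points, each with an exact two-sided permutation p of 0.1, the smallest that 3 against 3 libraries can give (0.15 after Benjamini-Hochberg adjustment over the 3 comparisons). Neonatal and fetal shares overlapped (difference -3.70, exact permutation p = 0.6, adjusted 0.6).

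**Figure D2:**
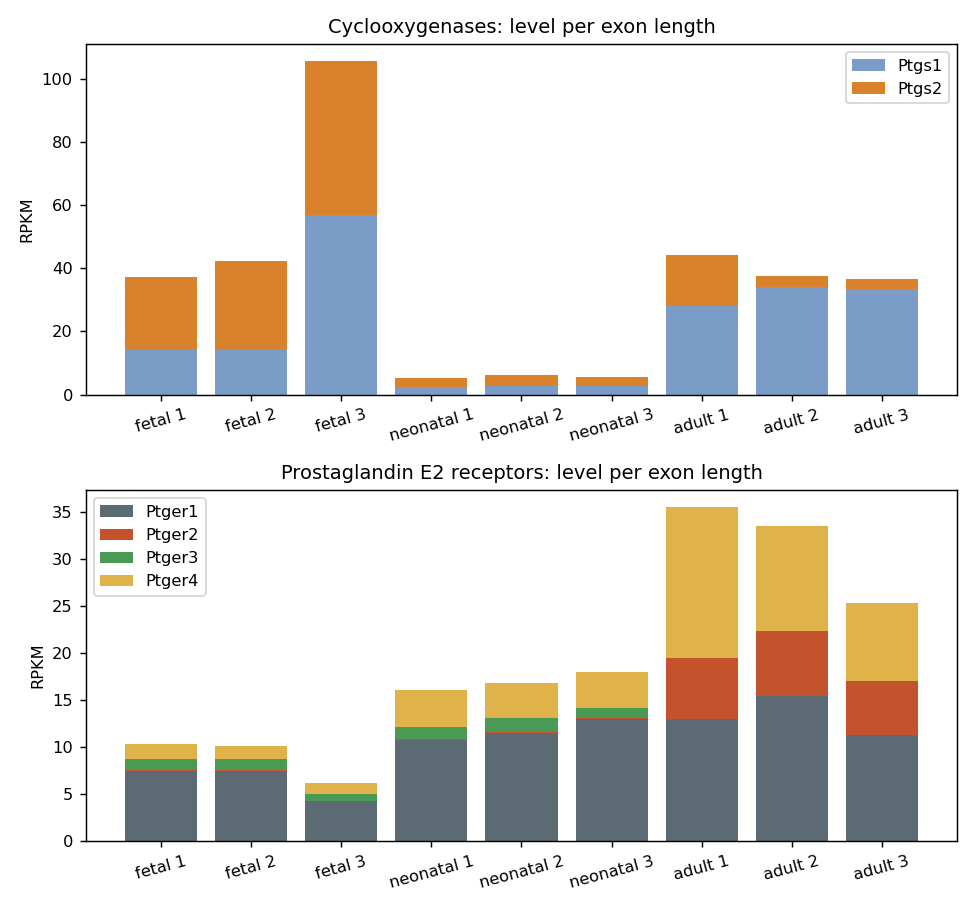
Stacked bars give the level per exon length (RPKM, linear axis from 0) of the 2 cyclooxygenases (top) and of the 4 prostaglandin E2 receptors (bottom) in each of the 9 libraries. The cyclooxygenase sum is lowest in the neonatal libraries (5.23 to 6.23 RPKM), and Ptger2 and Ptger4 make up most of the receptor sum in the adult libraries.

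Among the terminal synthases, Ptgis, the prostacyclin synthase, was the most abundant member at each age per exon length, with 144, 57.2 and 108 RPKM in fetal, neonatal and adult cells. Ptgis (chromosome 3, 163950746 to 163986129, rn6) was at 286.7, 266 and 163 CPM in fetal, 91.3, 96.1 and 97.7 CPM in neonatal and 215, 176 and 146 CPM in adult replicates 1, 2 and 3. Its neonatal libraries lay below all others, and fetal and adult libraries overlapped. The mean fell from 239 ± 66.5 CPM in fetal to 95.0 ± 3.33 CPM in neonatal cells (SD, n = 3 each), by 1.33 on the log2 scale (SE 0.21, edgeR adjusted p = 0.00175), and was at 179 ± 34.6 CPM in adult cells (SD, n = 3), 0.91 above neonatal cells (SE 0.21, edgeR adjusted p = 0.00404). The log2 difference of adult over fetal cells, -0.41 (95% interval -0.88 to 0.05, edgeR adjusted p = 0.0989), was -0.63 without fetal replicate 3 (edgeR adjusted p = 0.00299) and -0.56 without adult replicate 1 (edgeR adjusted p = 0.0492).

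Ptges, the inducible prostaglandin E synthase, was low throughout and highest in adult cells. Ptges (chromosome 3, 9727408 to 9738752, rn6) was at 0.972, 1.01 and 1.70 CPM in fetal, 1.98, 1.91 and 2.01 CPM in neonatal and 8.04, 3.47 and 2.92 CPM in adult replicates. The 3 ages did not overlap (57.4% of all tested genes did not between fetal and neonatal libraries, 76.1% between neonatal and adult and 71.8% between fetal and adult ones), and adult replicate 1 was high, as it was for Ptgs2. The difference of neonatal over fetal cells was not called (log2 0.68, 95% interval -0.27 to 1.63, edgeR adjusted p = 0.232). Adult cells held 4.81 ± 2.81 CPM against 1.23 ± 0.409 CPM in fetal cells (SD, n = 3 each), 1.96 higher on the log2 scale (SE 0.41, edgeR adjusted p = 0.00204). This difference ran from 1.38 to 2.26 over the 16 other settings and stayed called in each. Against the neonatal 1.97 ± 0.0528 CPM (SD, n = 3) the difference was 1.29 (SE 0.40, edgeR adjusted p = 0.0185), and this call was lost without adult replicate 1 (log2 0.70, edgeR adjusted p = 0.0720) and without neonatal replicate 1, 2 or 3 (edgeR adjusted p = 0.0539, 0.0583 and 0.0521).

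Ptgds, the lipocalin-type prostaglandin D synthase, was not detected in adult cells. Ptgds (chromosome 3, 2686125 to 2689059, rn6) had 65, 99 and 36 counts in fetal, 48, 53 and 56 counts in neonatal and 0 counts in each adult replicate. The adult libraries thus lay below all others. On the CPM scale it was at 3.26 ± 1.25 in fetal and 2.91 ± 0.626 in neonatal cells (SD, n = 3 each), which were not separated (log2 -0.18, 95% interval -1.002 to 0.651, edgeR adjusted p = 0.725). A count of 0 allows up to 3 counts, or 0.217 to 0.230 CPM in the adult libraries, so adult cells were at least 14.6-fold lower than fetal cells (edgeR adjusted p = 6.51e-05) and at least 13.0-fold lower than neonatal cells (edgeR adjusted p = 0.000112). Such limits cover counting error only.

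The receptors changed in different directions. Ptger1 (chromosome 19, 24800072 to 24803373, rn6), the calcium-coupled receptor, was at 14.4, 14.4 and 8.24 CPM in fetal, 20.6, 22.1 and 25.0 CPM in neonatal and 24.9, 29.6 and 21.6 CPM in adult replicates. All fetal libraries lay below all later ones, and neonatal and adult libraries overlapped. The mean rose from 12.3 ± 3.56 CPM in fetal to 22.6 ± 2.21 CPM in neonatal cells (SD, n = 3 each), by 0.87 on the log2 scale (SE 0.21, edgeR adjusted p = 0.0116). Adult cells, at 25.4 ± 4.01 CPM (SD, n = 3), were 1.04 above fetal cells (SE 0.21, edgeR adjusted p = 0.00158), while the adult and neonatal levels differed by 0.17 (95% interval -0.29 to 0.63, edgeR adjusted p = 0.489).

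Ptger4 (chromosome 2, 54952821 to 54963448, rn6), a receptor that raises cyclic AMP, was the only member called in all 3 comparisons. It was at 2.38, 1.94 and 1.70 CPM in fetal, 5.78, 5.48 and 5.57 CPM in neonatal and 23.7, 16.3 and 12.2 CPM in adult replicates. No libraries of different ages overlapped. The mean went from 2.01 ± 0.343 to 5.61 ± 0.153 and 17.4 ± 5.80 CPM (SD, n = 3 each). The log2 difference was 1.48 between neonatal and fetal cells (SE 0.26, edgeR adjusted p = 0.00248), 1.63 for adult over neonatal cells (SE 0.24, edgeR adjusted p = 0.000251) and 3.11 between adult and fetal cells (SE 0.26, edgeR adjusted p = 4.63e-06).

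Ptger2 (chromosome 15, 19338330 to 19349759, rn6), the other receptor that raises cyclic AMP, was high in adult cells alone. It had 1, 2 and 0 counts in fetal, 4, 4 and 1 counts in neonatal and 116, 130 and 104 counts in adult replicates 1, 2 and 3. The adult libraries lay far above all others, and the fetal libraries were at or below the 3-count floor. Adult cells, at 8.69 ± 0.818 CPM (SD, n = 3), were higher than fetal cells by at least 57.4-fold (edgeR adjusted p = 9.52e-07) and 5.68 on the log2 scale above the neonatal 0.157 ± 0.0817 CPM (SD, n = 3, SE 0.40, edgeR adjusted p = 3.07e-06). Neonatal and fetal levels could not be separated at this depth (edgeR adjusted p = 0.115).

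Ptger3 (chromosome 2, 263895205 to 263978968, rn6), which lowers cyclic AMP, had the opposite course. It had 27, 35 and 18 counts in fetal, 28, 40 and 22 counts in neonatal and 0, 1 and 0 counts in adult replicates. The adult libraries lay below all others, and the younger ages overlapped. Adult cells were at least 5.90-fold below the fetal 1.32 ± 0.317 CPM (edgeR adjusted p = 6.98e-05) and at least 7.19-fold below the neonatal 1.61 ± 0.225 CPM (SD, n = 3 each, edgeR adjusted p = 6.35e-05). Neonatal and fetal cells differed by 0.29 on the log2 scale (95% interval -0.48 to 1.06, edgeR adjusted p = 0.538).

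Per exon length, the summed level of the 4 receptors was 8.86 ± 2.31 RPKM in fetal, 16.9 ± 0.957 in neonatal and 31.4 ± 5.42 in adult cells (SD, n = 3 each). Ptger1 made up 71.9% ± 2.59 of it in fetal, 69.2% ± 2.85 in neonatal and 42.3% ± 5.17 in adult cells. Ptger4 went from 15.8% ± 2.78 to 22.5% ± 1.74 and 37.0% ± 7.06, and Ptger2 from 0.344% ± 0.325 to 0.699% ± 0.387 and 20.7% ± 2.15. Ptger3 went from 11.9% ± 0.567 to 7.60% ± 1.24 and 0.0574% ± 0.0994. The receptors that raise cyclic AMP therefore held the larger part of the receptor transcripts in every adult library, and Ptger1 in every younger one. As for Ptgs2, the counted models of the 4 receptors spanned less than RefSeq gives, for Ptger3 83764 against 144982 bases. The shares between receptors rest on the counted models. In the adult libraries the summed macrophage and endothelial markers were also higher than in younger ones, and the summed cardiomyocyte markers lower. Tie1 alone, with an adult mean of 70.35 CPM, made up most of the adult endothelial sum (mean 101.2 CPM). Only 4 of the 8 endothelial markers had all adult values above all younger ones. Kdr went the other way, with means of 2.58, 5.55 and 0.90 CPM in fetal, neonatal and adult cells. The part of macrophages, endothelial cells and cardiomyocytes in the adult levels of Ptger2, Ptger4, Ptges, Ptgds and Ptger3 was not tested.

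**Figure D3:**
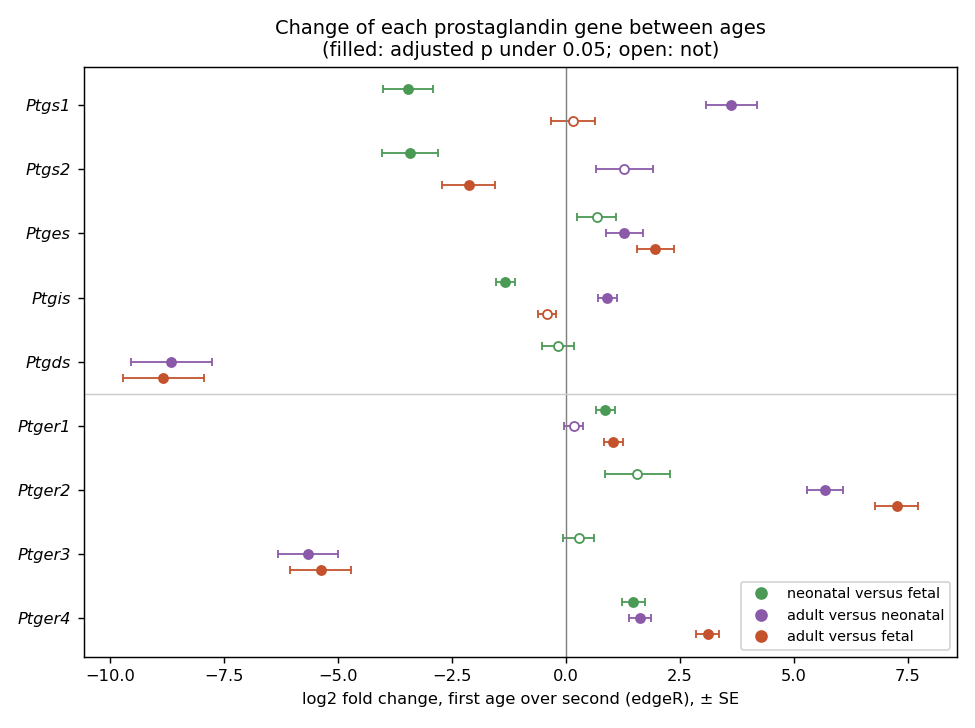
Log2 fold change of each of the 9 genes (rows, synthases above the line and receptors below) for the 3 pairs of ages, with the standard error from edgeR. Filled points have an adjusted p under 0.05. Fitted values for Ptgds, Ptger2 and Ptger3 rest on ages at or near 0 counts and show direction, not size. The cyclooxygenases and Ptgis lie to the left between neonatal and fetal cells, and Ptger4 lies to the right in all 3 comparisons.

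In order of mean level per exon length, fetal cells held Ptgis (144 RPKM), Ptgs2 (33.2), Ptgs1 (28.5), Ptger1 (6.42), Ptgds (4.30), Ptger4 (1.36), Ptger3 (1.05), Ptges (0.980) and Ptger2 (0.0350). The ranges over libraries overlapped between Ptgs2 and Ptgs1, between Ptger1 and Ptgds, and along Ptger4, Ptger3 and Ptges. In neonatal cells Ptger1 (11.7 RPKM) stood second after Ptgis (57.2), above Ptgds (3.83), Ptger4 (3.81), Ptgs2 (3.08) and Ptgs1 (2.58), with overlap only between Ptgds and Ptger4 among neighbours in the full order. In adult cells Ptgs1 (31.9 RPKM) stood second after Ptgis (108), followed by Ptger1 (13.2), Ptger4 (11.8), Ptgs2 (7.58), Ptger2 (6.42) and Ptges (3.83), where each of these last 5 overlapped its neighbour. Ptger3 and Ptgds were last there, at 0.0192 and 0 RPKM.

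The other genes of the eicosanoid pathway were taken from 5 lists by role, 34 genes of which 24 had enough counts for the test. Between neonatal and fetal cells 4 were higher and 5 lower, between adult and neonatal cells 11 higher and 5 lower, and between adult and fetal cells 11 higher and 5 lower. Over all tested genes 36.3%, 63.5% and 70.5% were called in these comparisons, with similar shares higher and lower. The shares of the 24 genes called were near these, and the counts per list below stand beside the same shares. The split of the 24 genes between neonatal and fetal cells depended on the scaling and on single libraries. With library size alone 0 were higher and 7 lower. Without neonatal replicate 1 or 2 0 were higher and 4 lower, and without neonatal replicate 3 1 was higher and 4 lower. The 10 genes not tested included Hpgds, the hematopoietic prostaglandin D synthase, with at most 29 counts, Hpgd, the main prostaglandin-inactivating enzyme, with at most 11, and the prostaglandin D2 receptors Ptgdr, with 0, and Ptgdr2, with at most 4 counts in any library.

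Upstream of the cyclooxygenases, 7 genes of arachidonate release were tested, with 2 higher and 1 lower between neonatal and fetal cells, 3 higher and 1 lower between adult and neonatal cells and 4 higher and 1 lower between adult and fetal cells. Pla2g4a, the cytosolic phospholipase that supplies most arachidonate to the cyclooxygenases, showed a shallow neonatal minimum, with 45.9, 34.6 and 59.1 CPM in fetal, neonatal and adult cells (log2 -0.41, SE 0.07, edgeR adjusted p = 0.00205 for neonatal over fetal). Anxa1, an inhibitor of phospholipase activity, was higher in neonatal than in fetal cells by 0.53 (SE 0.17, edgeR adjusted p = 0.0359), a call that was lost without fetal replicate 1 or 2 or any single neonatal library (edgeR adjusted p = 0.0786 to 0.101). The secreted phospholipases moved in opposite directions. Pla2g2a had at most 2 counts in a fetal library and 10 or 11 counts in neonatal libraries, and was at 421, 152.5 and 67.0 CPM in adult replicates 1, 2 and 3, at least 1410-fold higher than in fetal libraries (edgeR adjusted p = 1.58e-05). Its adult mean of 213 CPM was 109.7 CPM without adult replicate 1. Pla2g5 fell from 8.18 ± 0.981 CPM in neonatal to 1.55 ± 0.827 CPM in adult cells (SD, n = 3 each, log2 -2.40, SE 0.33, edgeR adjusted p = 0.000200) and was at 7.00 ± 1.42 CPM in fetal cells (SD, n = 3).

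Of the 5 other terminal synthases tested, 1 was higher between neonatal and fetal cells and 2 in each adult comparison, with 0 lower. Tbxas1, the thromboxane synthase, was at 0.270, 0.265 and 1.65 CPM in fetal, 2.31, 2.14 and 2.14 CPM in neonatal and 69.0, 76.4 and 79.5 CPM in adult replicates. Adult libraries lay far above the younger ones, with a log2 difference of 5.09 over neonatal (SE 0.36, edgeR adjusted p = 4.46e-06) and 6.72 over fetal cells (SE 0.42, edgeR adjusted p = 1.12e-06), which was 8.09 without fetal replicate 3. The neonatal level was above the fetal one by 1.63 (SE 0.51, edgeR adjusted p = 0.0346) and by 3.01 without fetal replicate 3, and this call was lost without fetal replicate 1 or 2, any single neonatal library or adult replicate 2 (edgeR adjusted p = 0.0543 to 0.0937). Tbxas1 is abundant in macrophages, whose markers had the same order over the ages, and their part in its level was not tested. Fam213b, a prostaglandin F synthase, was higher in adult cells by 1.23 over neonatal (SE 0.20, edgeR adjusted p = 0.000514) and 1.25 over fetal cells (SE 0.20, edgeR adjusted p = 0.000339). The cytosolic prostaglandin E synthase Ptges3 and the membrane-associated Ptges2 were not called in any comparison, with Ptges3 at 136, 99.1 and 115 CPM and Ptges2 at 21.9, 20.4 and 23.0 CPM in fetal, neonatal and adult cells.

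Among the 3 other prostanoid receptors tested, 1 was lower between neonatal and fetal cells, and 1 was higher and 1 lower in each adult comparison. Ptgfr, the prostaglandin F receptor, was at 91.0, 103 and 69.4 CPM in fetal, 42.5, 44.7 and 48.1 CPM in neonatal and 5.05, 3.25 and 2.02 CPM in adult replicates. It fell stepwise with no overlap between ages, by 0.96 on the log2 scale from fetal to neonatal (SE 0.21, edgeR adjusted p = 0.00752) and by 3.71 from neonatal to adult cells (SE 0.26, edgeR adjusted p = 3.73e-06). Ptgir, the prostacyclin receptor and partner of the Ptgis product, was at 1.91 ± 0.563, 2.16 ± 0.213 and 9.73 ± 3.47 CPM (SD, n = 3 each) and rose between neonatal and adult cells by 2.16 (SE 0.30, edgeR adjusted p = 0.000198). The thromboxane receptor Tbxa2r was at 15.6, 18.9 and 9.80 CPM in fetal, neonatal and adult cells and was not called. Fetal replicate 3, at 6.004 CPM, lay far below the other fetal libraries, and without it the fetal mean was 20.4 CPM, above the neonatal one.

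For transport and breakdown 4 genes were tested, with 1 higher and 2 lower between neonatal and fetal cells, 0 higher and 3 lower between adult and neonatal cells and 0 higher and 2 lower between adult and fetal cells. Slco2a1, the prostaglandin uptake carrier, was at 44.7, 46.0 and 33.3 CPM in fetal, 30.0, 28.4 and 28.7 CPM in neonatal and 7.19, 9.25 and 6.22 CPM in adult replicates. The adult level was below the neonatal one (log2 -1.94, SE 0.17, edgeR adjusted p = 9.97e-06) and the neonatal level below the fetal one (log2 -0.51, SE 0.15, edgeR adjusted p = 0.0261). The latter call was lost without fetal replicate 1 or 2 or any single neonatal library (edgeR adjusted p = 0.0717 to 0.0892). Ptgr1, which reduces inactive prostaglandin metabolites, fell by 0.41 and 0.46 on the log2 scale in the same steps (edgeR adjusted p = 0.0111 and 0.00303).

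The lipoxygenase branch, which makes leukotrienes from the same arachidonate, had 5 genes tested, of which 0 were higher and 1 lower between neonatal and fetal cells, 5 were higher between adult and neonatal cells and 4 higher and 1 lower between adult and fetal cells. Alox5, the first enzyme of leukotriene synthesis, was at 0.833, 0.945 and 27.8 CPM in fetal, neonatal and adult cells (log2 4.87, SE 0.30, edgeR adjusted p = 1.28e-06 for adult over neonatal). Its activating protein Alox5ap was at 1.53, 1.46 and 35.8 CPM (log2 4.62, SE 0.22, edgeR adjusted p = 2.42e-07). Alox12, a lipoxygenase, had an adult level above the fetal one by 4.67 (SE 0.50, edgeR adjusted p = 2.76e-05) and by 5.47 without fetal replicate 3. Lta4h, which makes leukotriene B4, was lower in neonatal than in fetal cells by 0.36 (log2 -0.36, SE 0.06, edgeR adjusted p = 0.00153). Alox5 and Alox5ap are known from myeloid cells, and the part of the macrophage transcripts in these values was not tested.

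**Figure D4:**
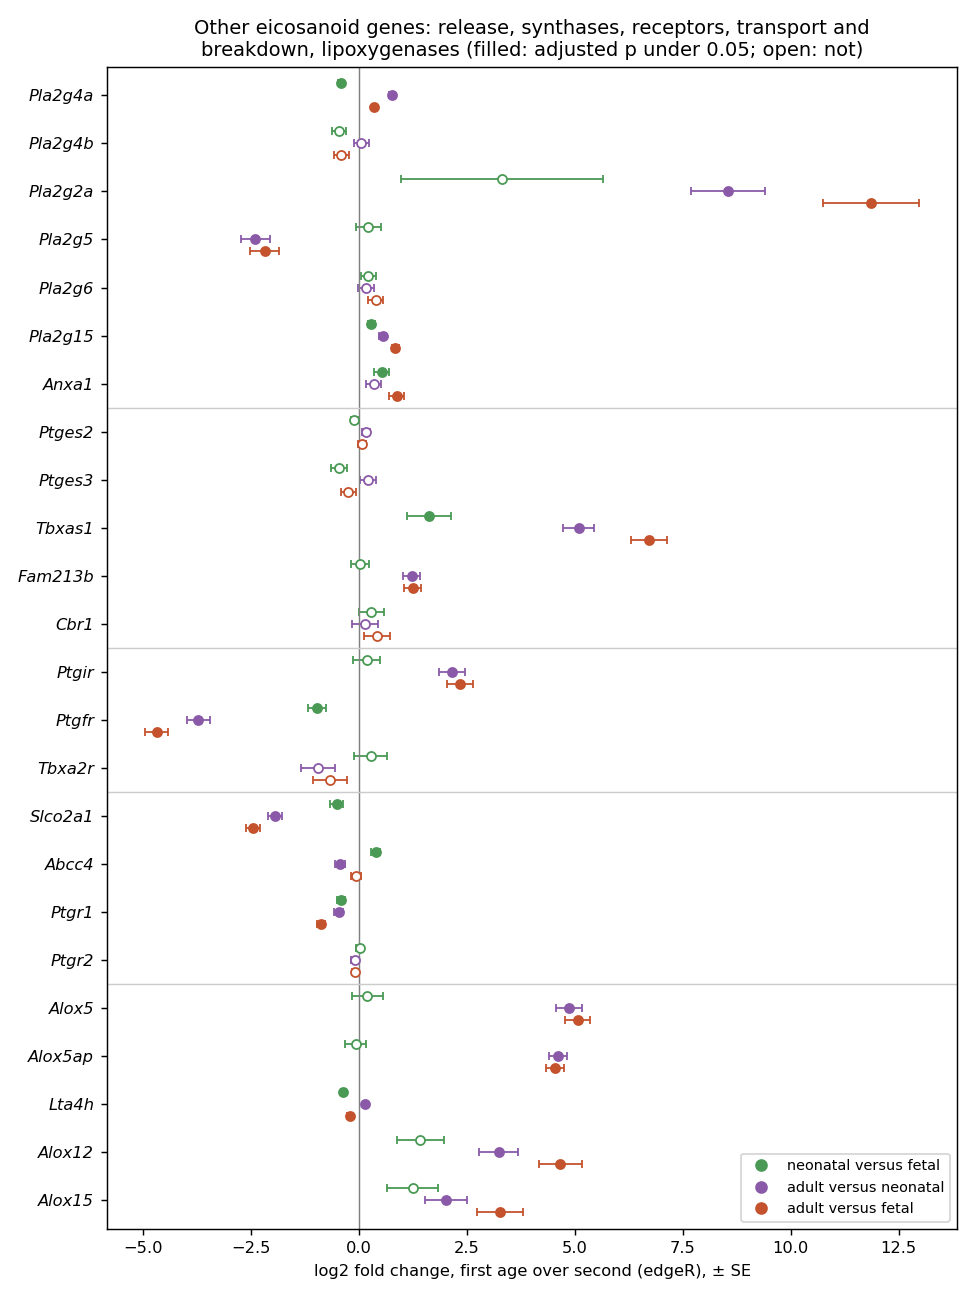
Log2 fold change with its standard error (edgeR) of the 24 tested genes of the 5 other eicosanoid lists, separated by lines, for the 3 pairs of ages. Filled points have an adjusted p under 0.05. Pla2g2a, Tbxas1, Alox5, Alox5ap and Alox12 lie far to the right in the adult comparisons, and Ptgfr, Slco2a1 and Pla2g5 to the left.

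The genes most like each member were sought among 10784 genes by the root mean square difference of log2 CPM, each centred on its own mean over the 9 libraries. For Ptgs1 the closest was F3, tissue factor (0.30), with 263, 33.5 and 384 CPM in fetal, neonatal and adult cells, followed by Tgm1 (0.49) and Ass1 (0.57). Genes close to Ptgs2 included Clu (0.41) and Cdkn1c (0.44), and the closest were Stc2 (0.19), Aldoc (0.24) and Abcb1b (0.25) for Ptgis and, for Ptges, Pdgfra (0.13), Pla1a (0.18) and Snai1 (0.24). Among the receptors, Ptger1 was closest to Plekhh3 (0.08), Cyp4f6 (0.09) and Bmp1 (0.12), and Ptger4 to Ppap2a (0.15), Il17re (0.17) and Cyp7b1 (0.17). Ptger2 was closest to Niacr1 (0.25), Kctd4 (0.29) and LOC498276 (0.31), and Ptger3 to Lynx1 (0.16), Cpe (0.26) and Cacna2d2 (0.29). For Ptgds they were Synm (0.25), Sptb (0.26) and Stc1 (0.30). This likeness is a description over 9 libraries that share 3 ages, and no test was made of it.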

How the data were processed

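RNA sequencing counts of 9 cultured cardiac fibroblast libraries, 3 per age, were analysed. Per the file headers, the authors made the raw counts per gene with featureCounts 1.6.3 on an rn6 annotation with default settings, so without strand, and the submitters' processing notes name Trimmomatic 0.39, STAR 2.5.2b and DESeq2. The deposited normalized signal of 12786 genes, including the 9 members, equalled the counts divided by 1 size factor per library and was not used further. No exon of a member overlapped another gene of the table. Exon lengths in bases are the other measure given per the file headers.

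From the counts, genes were kept with filterByExpr and scaled by TMM, and edgeR 4.0.16 (R 4.3.3) quasi-likelihood models with age as the only term were fitted to all 9 libraries. P-values were adjusted by Benjamini-Hochberg over 11337 genes, with a threshold of 0.05. CPM and RPKM use TMM-scaled library sizes, log2 CPM a prior count of 2, and the floor was 3 counts. Each standard error was derived from the log2 fold change and its F value. The fit was checked on simulated data. Alternatives were DESeq2 1.42.0, its size factors, library size alone, no filter, only the ages compared, a replicate block and leaving out each library.

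Members and gene lists were chosen with earlier results of these data known. Named genes are all members, per list and comparison the 2 called genes with the largest change among those averaging 1 CPM or more in the age with more, and the 3 genes most like each member. A gene that this rule names is not reported here. Ptges2, Ptges3, Tbxa2r and the untested genes were named for their roles after their values were seen. The labels do not say whether libraries came from separate cultures or animals, so p-values measure the spread between these samples, which may be technical. Same-numbered libraries did not vary together, so the model has no block.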

Additional observations from a re-analysis of the deposited data

How the results depend on the processing

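Of 431 comparisons of a member result with 16 other settings, 414 kept the direction and the side of the threshold, 5 lost a call, 8 gained one and 4 changed sign. The sign changes concerned differences that were not called: Ptgs1 between adult and fetal cells was at -0.0021 with library size alone and between -0.17 and 1.16 on leaving out single libraries, and Ptgds between neonatal and fetal cells ran from -0.453 to 0.0968, the latter without fetal replicate 2. Leaving out both fetal replicate 3 and adult replicate 1, chosen after seeing the data, called 6 members between neonatal and fetal cells, 7 between adult and neonatal cells and 9 between adult and fetal cells, with Ptges (0.97) gained in the first and Ptgs1 (1.25) and Ptgis (-0.78) in the last. Library size alone also gained Ptgis between adult and fetal cells (log2 -0.51, adjusted p = 0.0219). On leaving out 1 library the member counts ran from 5 to 5, 6 to 8 and 7 to 8. For the other pathway genes library size alone gave 0 higher and 7 lower between neonatal and fetal cells, in place of 4 and 5. On leaving out 1 library their counts ran from 4 to 11, 15 to 20 and 16 to 18, with the cause not tested. The difference in the Ptgs2 share between neonatal and fetal libraries ran from -9.68 to 0.248 percentage points, turning sign without fetal replicate 2, and from -45.4 to -31.2 and -49.1 to -34.9 in the adult comparisons.

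The replicate numbers did not pair the libraries: deviations of same-numbered libraries correlated at -0.065 to 0.052. With the replicate block 5, 7 and 7 members were called, as without it, and 11, 15 and 17 other pathway genes in place of 9, 16 and 16. Depth limits Ptger2 in fetal cells and Ptger3 and Ptgds in adult cells, so that only bounds could be given against them. Ptger2 in neonatal cells rests on 1 to 4 counts.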
